A study of Mus musculus with 18 samples.

Results

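The lung and the colon of vehicle-treated mice were compared gene by gene, in 3 lung and 3 colon libraries out of 18 in the series. C57BL/6N mice aged 7 weeks had been given 0.5% carboxymethyl cellulose (CMC) by mouth, in doses 4 h apart, and tissues were taken 8 h after the first dose. This vehicle served as the control for RECTAS, a small molecule that modifies splicing, given at 100 mg/kg in the same vehicle. The 6 libraries were chosen by their labels alone, without measured values: all 3 labelled lung and vehicle, and all 3 labelled colon and vehicle. The 6 lung and colon libraries of RECTAS-treated mice were not part of the main comparison. They served to repeat it and to test whether the tissue difference changed with the drug. An alternative fit of 12 libraries and the closing observations also used them. All animals of both groups had received the vehicle, so no library represents an undosed mouse. Nothing in the labels ties a library to an animal, and lung and colon with the same number need not share one. The p-values therefore reflect only how much libraries of a group varied, which may be technical.

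The lung exchanges gases across alveoli lined by flat type 1 cells and by cuboidal type 2 cells, which secrete surfactant. Its airways carry secretory club cells and ciliated cells, and a dense capillary bed surrounds the air spaces. The colon absorbs salt and water through a columnar epithelium of absorptive colonocytes and mucus-secreting goblet cells, renewed from stem cells in crypts and wrapped in smooth muscle with its own nervous system. Both organs form from the gut tube of the embryo, the lung from its anterior and the colon from its posterior part.

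Expression was given per gene in TPM, length-adjusted transcript abundance scaled to a common total, so levels can be compared between genes. TPM keeps no read depth, and the depth behind each value is therefore unknown. Between 13925 and 14478 genes reached 1 TPM in a colon library and between 15502 and 15743 in a lung library. Pearson correlations of log2(TPM + 1) over genes were 0.979 to 0.987 within a tissue and 0.605 to 0.642 between tissues, and 0 pairs of libraries were identical. The secretoglobin gene Scgb1a1 alone took 13.3% to 14.9% of all TPM in the lung libraries, and mitochondrially encoded transcripts took 16.9% to 17.9% in colon against 8.79% to 9.6% in lung. Such shares lower the TPM of every other gene in a library.

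Single libraries stood apart within their group in some genes. In lung library 3, 327 of the 540 genes called at least 8-fold higher in colon had their highest lung value, against 108 in library 1 and 72 in library 2, although the sum of these genes there was 3039 TPM and the sums in the others 2536 and 2449 TPM. Lung libraries 2 and 3 also held hepatocyte transcripts, with a summed level of 624 and 1780 TPM for 14 hepatocyte genes against 24.9 TPM in lung library 1 and 38.8 to 41.5 TPM in colon. Of the 991 genes called at least 8-fold higher in lung, 514 had their highest colon value in colon library 1. The count was 122 in colon library 2 and 282 in colon library 3. Their sums in colon libraries 1, 2 and 3 were 4579, 2988 and 3764 TPM. Colon library 1 also had the highest smooth muscle sum, at 8584 TPM for 19 genes against 3637 and 3648 TPM, and the highest levels of posterior Hoxa genes. Where leaving out 1 of these or another library moved a named difference by more than 1.5 times, the value without it is given.

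The tissue labels were checked with the surfactant protein C gene Sftpc, which marks alveolar type 2 cells, and Slc26a3, the chloride and bicarbonate exchanger of the colonocyte surface. Sftpc (ENSMUSG00000022097, chromosome 14, 70520949 to 70524081, minus strand, GRCm38) stood at 31807, 28612 and 31434 TPM in the lung libraries and at 0, 0.07 and 0.16 TPM in the colon libraries. Slc26a3 (ENSMUSG00000001225, chromosome 12, 31390871 to 31473917, plus strand) stood at 335, 322 and 171 TPM in colon and at 0, 0 and 0.3 TPM in lung. Each marker was thus high in every library of its own tissue and at or near 0 in the other, with no overlap. The log2 difference, lung minus colon on the log2(TPM + 1) scale, was 14.80 (SE 0.08, limma adjusted p = 3.98e-10) for Sftpc and −7.93 (SE 0.27, adjusted p = 4.55e-07) for Slc26a3. Each gene was tested only because it reached 1 TPM in its own tissue, so the direction of both was fixed in advance.

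Promoter windows of 5 genes that the tissues separated are shown because each carries a match to one of the motifs counted further on. Each runs from 250 bases before to 50 bases after the annotated start, 5′ to 3′ on the gene's strand, from RefSeq on GRCm38.p6. Capitals mark the match, on either strand, and the genes were chosen after their matches were seen. For Slc26a3 (chr12:31437969-31438268, plus strand) the capitals mark an HNF1 motif, GTTAATNAT, 84 bases before the start. For Fabp2, the intestinal fatty acid-binding protein (chr3:122894822-122895121, plus strand), they mark a CDX motif, TTTATTG, 65 bases before it. For Guca2a, the gut peptide guanylin (chr4:119637482-119637781, plus strand), they mark 2 GATA motifs, AGATAAG read on the other strand, 145 and 121 bases before it. For Sftpb, surfactant protein B (chr6:72304360-72304659, plus strand), they mark 2 NKX2-1 motifs, CTCAAG, 100 and 15 bases before it. For Sntn, sentan of the ciliary tip (chr14:13670626-13670925, plus strand), they mark an RFX motif, GTTGCCATG, 66 bases before it. The window of Slc26a3 lies inside the gene span given above, 31390871 to 31473917, which comes from GENCODE. The RefSeq start used for that window is thus not the start of the span.
Slc26a3: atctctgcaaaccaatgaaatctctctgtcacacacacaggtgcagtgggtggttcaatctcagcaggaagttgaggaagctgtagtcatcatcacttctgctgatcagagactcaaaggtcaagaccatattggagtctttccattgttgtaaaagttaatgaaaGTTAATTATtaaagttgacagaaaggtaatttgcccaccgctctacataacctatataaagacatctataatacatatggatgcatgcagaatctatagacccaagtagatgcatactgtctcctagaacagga
Fabp2: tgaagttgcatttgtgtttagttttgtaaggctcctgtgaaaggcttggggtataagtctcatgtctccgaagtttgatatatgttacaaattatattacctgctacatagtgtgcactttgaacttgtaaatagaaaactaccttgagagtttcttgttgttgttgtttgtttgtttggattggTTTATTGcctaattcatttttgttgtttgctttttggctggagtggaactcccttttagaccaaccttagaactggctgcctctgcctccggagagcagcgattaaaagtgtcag
Guca2a: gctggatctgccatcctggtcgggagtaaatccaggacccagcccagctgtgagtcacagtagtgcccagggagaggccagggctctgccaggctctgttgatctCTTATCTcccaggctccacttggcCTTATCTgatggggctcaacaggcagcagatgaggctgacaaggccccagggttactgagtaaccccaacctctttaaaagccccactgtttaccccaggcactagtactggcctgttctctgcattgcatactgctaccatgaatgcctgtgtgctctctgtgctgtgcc
Sftpb: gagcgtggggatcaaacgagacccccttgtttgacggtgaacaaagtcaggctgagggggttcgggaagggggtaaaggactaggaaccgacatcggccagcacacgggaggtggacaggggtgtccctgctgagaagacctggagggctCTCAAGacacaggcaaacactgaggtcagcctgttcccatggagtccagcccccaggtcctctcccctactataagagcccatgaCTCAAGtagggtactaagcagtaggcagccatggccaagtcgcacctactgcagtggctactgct
Sntn: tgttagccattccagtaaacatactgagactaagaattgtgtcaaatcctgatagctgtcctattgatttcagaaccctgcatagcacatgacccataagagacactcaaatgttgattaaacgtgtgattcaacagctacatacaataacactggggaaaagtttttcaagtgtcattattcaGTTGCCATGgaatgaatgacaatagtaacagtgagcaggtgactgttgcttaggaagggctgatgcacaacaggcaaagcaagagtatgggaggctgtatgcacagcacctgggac
A match is a run of letters and not a measured binding site.

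Most genes differed between the tissues. Of 16137 genes that reached 1 TPM in 3 or more of the 6 libraries, 8430 (52.2%) were called higher in lung and 4158 (25.8%) higher in colon by limma at a Benjamini-Hochberg adjusted p under 0.05. Calls with at least a 2-fold difference, used for the gene lists that follow, numbered 4566 (28.3%) in lung and 2261 (14.0%) in colon. The 2 groups of libraries did not overlap in 13214 genes (81.9%). Of the tested genes, 1769 passed the filter through lung alone and 755 through colon alone; such genes had to be higher there, and 1519 and 653 of the 2-fold calls were of this kind. Another 2767 genes (17.1%) were even, meaning that the 95% limma interval of their log2 difference lay within 0.5 of 0.

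The surplus of calls in lung depended on scaling. As deposited, the median gene was 0.35 higher in lung on the log2 scale, and 67% of calls were higher in lung. After median ratio scaling, which sets the median gene to about the same level in every library, the shift was 0.0076 and the share 50.6%, and after quantile normalisation −0.01 and 49.8%. Rescaling without mitochondrial genes and the 20 highest genes left a shift of 0.37 and a share of 67.2%. Differences below should be read against this shift of 0.35, which matters for lists whose median lies near 0.

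**Figure D1:**
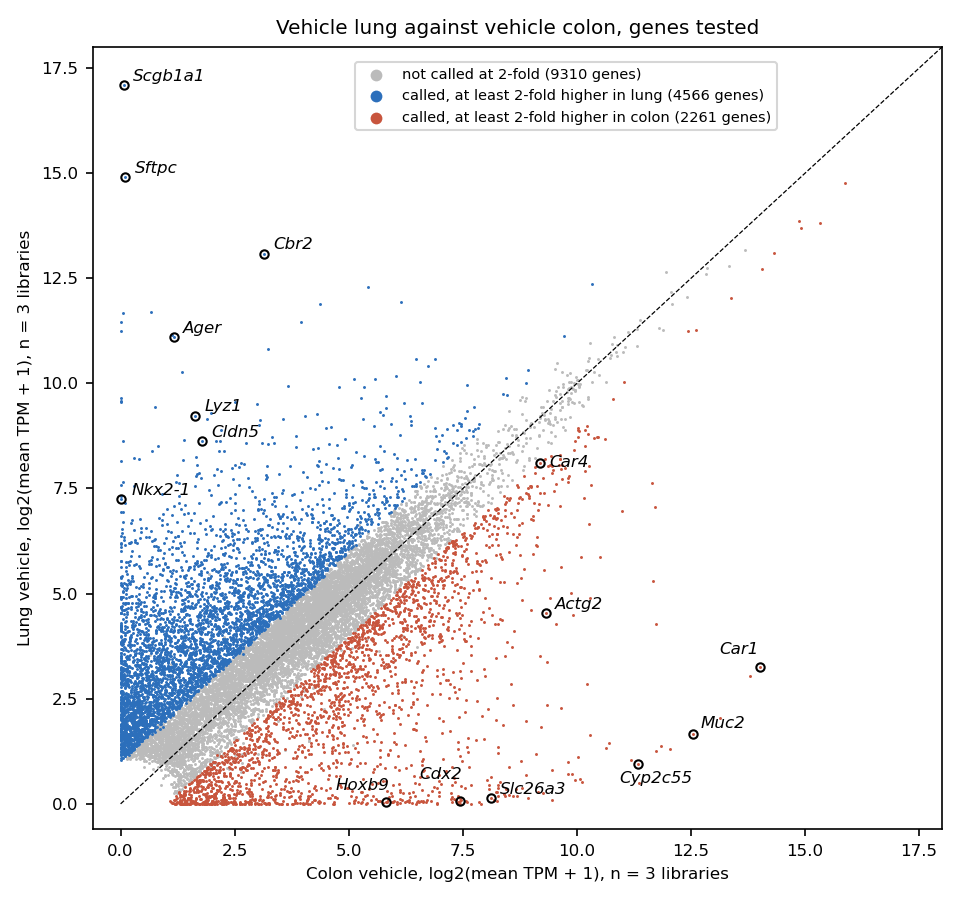
Mean level in colon (x axis) and lung (y axis) for the 16137 genes tested, as log2(mean TPM + 1) of 3 vehicle libraries each. Blue points are 4566 genes called at least 2-fold higher in lung, red points 2261 genes called at least 2-fold higher in colon, grey points the rest, and the dashed line marks equal levels. Scgb1a1 and Sftpc lie highest on the lung side, and Car1 lies farthest below the line.

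On the lung side the gene with the largest log2 difference was Scgb1a1, the main secretion of club cells, at 136561, 132818 and 149107 TPM in lung and 0, 0.14 and 0 TPM in colon. Scgb1a1 had passed the filter through lung alone, which fixed its direction. On the colon side the gene with the largest log2 difference was Car1, a cytosolic carbonic anhydrase of colonocytes, at 7456, 25529 and 16720 TPM in colon and 0.07, 0.03 and 25.6 TPM in lung. All lung libraries lay far below all colon libraries for Car1, with lung library 3 above the other lung libraries. The log2 difference was 17.03 (SE 0.08, adjusted p = 3.94e-10) for Scgb1a1 and −12.22 (SE 1.25, adjusted p = 8.79e-05) for Car1, and −13.77 for Car1 without lung library 3, −11.46 without library 1 and −11.43 without library 2. Sprr2a2, a small proline-rich protein gene with near-identical neighbours among which reads may have been divided, was at 15656, 17078 and 9721 TPM in colon and 0.07, 0.12 and 21.4 TPM in lung. Lypd8, which keeps flagellated bacteria off the colonic surface, was at 9151, 9615 and 8412 TPM in colon and 0, 0.07 and 9.2 TPM in lung. In both genes lung library 3 was again the highest of the lung libraries. Without it the log2 difference moved from −12.17 to −13.62 for Sprr2a2 (−11.42 and −11.46 without library 1 or 2) and from −11.99 to −13.09 for Lypd8.

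Alveolar type 2 genes were high in lung throughout. All 16 genes of the list were tested, 10 of them through lung alone, and 16 were called at least 2-fold higher in lung (median log2 difference 7.41). In whole tissue, fewer cells of a type and less RNA per cell cannot be told apart, here and in every list below. Sftpa1, surfactant protein A, was at 3183, 3141 and 3521 TPM in lung and at 0, 0 and 0.1 TPM in colon. Sftpb, whose promoter is shown above, was at 2964, 2790 and 2676 TPM in lung and listed at 0 in each colon library. Their log2 differences were 11.63 (SE 0.07) and 11.46 (SE 0.06). The surfactant collectin gene Sftpd and Cxcl15, a chemokine of lung epithelium, followed with differences of 9.57 and 9.54. Lpcat1, the acyltransferase that remodels surfactant phosphatidylcholine, was not confined to lung: it was at 204, 189 and 181 TPM there and 4.65, 5.09 and 5.26 TPM in colon, a log2 difference of 5.0 (SE 0.08, adjusted p = 3.07e-08).

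Type 1, club and ciliated cell genes were also higher in lung, with exceptions. Of 15 type 1 genes, 14 were called 2-fold higher (median 5.0), 6 having passed through lung alone. Ager, the receptor for advanced glycation end products on type 1 cells, was at 2105, 2357 and 2147 TPM in lung and 1.37, 0.71 and 1.67 TPM in colon, and Aqp5, an apical water channel, had a log2 difference of 8.57 (SE 0.08). The exception, named after its value was seen, was the scaffold gene Lmo7, at 207, 226 and 213 TPM in lung and 161, 238 and 152 TPM in colon (log2 difference 0.25, SE 0.16, adjusted p = 0.192). The groups overlapped for Lmo7. Of 13 club cell genes 12 were higher in lung (median 4.54, 7 through lung alone), among them Scgb3a2, Cbr2, a carbonyl reductase, and Cyp2f2, a cytochrome P450 of club cells, with differences of 11.20, 9.94 and 11.05. The potassium channel gene Kcnk1 went the other way, at 67.2, 57.6 and 56.6 TPM in colon against 11.8, 11 and 12.7 TPM in lung (log2 difference −2.26, SE 0.09).

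In the ciliated cell list 21 of 22 genes were tested, 15 through lung alone, and 21 were higher in lung (median 3.79, range 1.04 to 5.99). Foxj1, the transcription factor that switches on motile cilia, was at 66.6, 69.7 and 83 TPM in lung and 0.15, 0.2 and 0.13 TPM in colon. Tppp3, a tubulin-polymerising protein, was present in both, at 551, 535 and 558 TPM in lung and 119, 59.1 and 64.9 TPM in colon. Sntn, whose promoter is shown above, was at 23, 22.4 and 28.6 TPM in lung and listed at 0 in colon, and was named after its value was seen. The summed level of the 22 genes was 973 to 1109 TPM in lung and 68.1 to 129 TPM in colon.

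**Figure D2:**
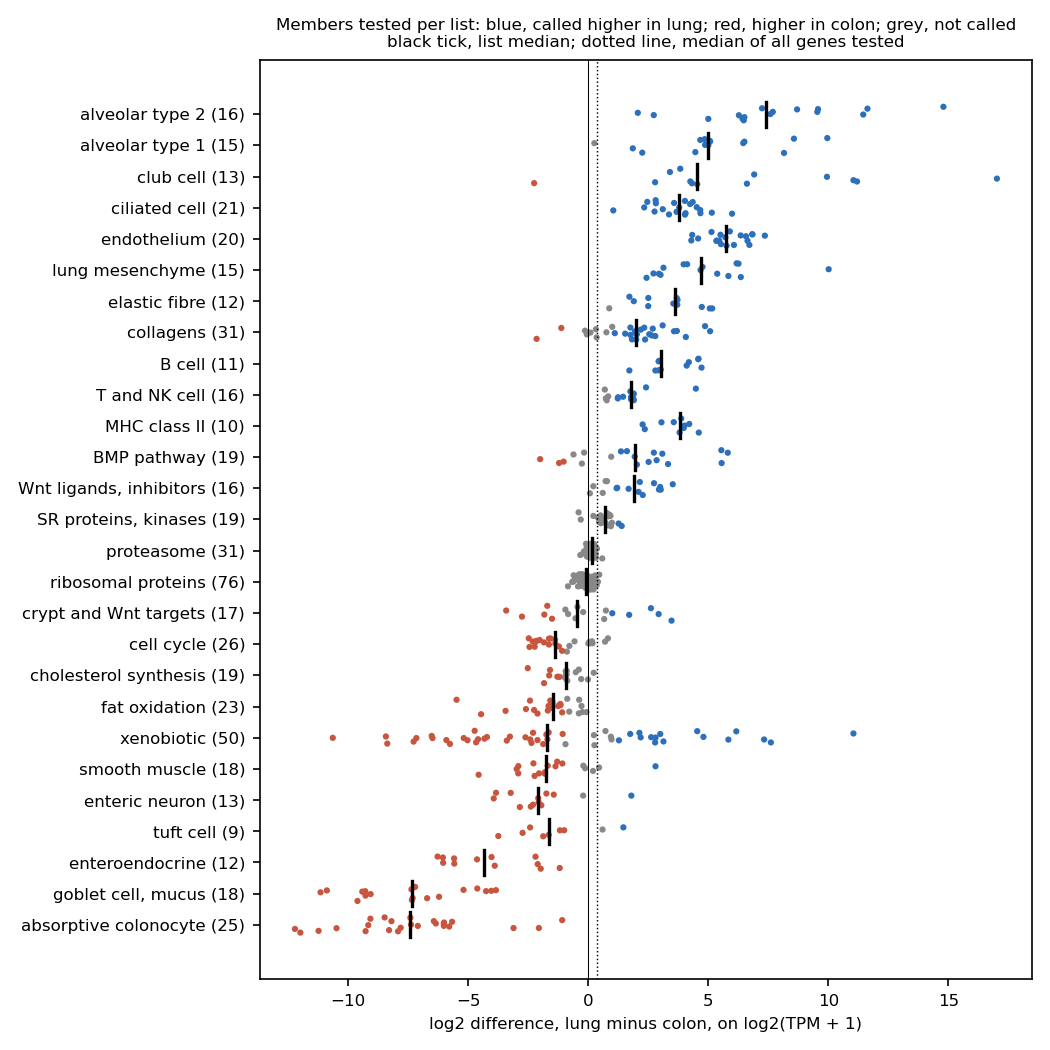
Log2 difference, lung minus colon, of each tested member of 27 gene lists, one row per list with the number of members tested. Blue points were called at least 2-fold higher in lung and red points at least 2-fold higher in colon, and the black tick is the list's median, which runs from 7.41 for alveolar type 2 genes to −7.41 for absorptive colonocyte genes. The dotted line marks the median of all genes tested, 0.35.

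Endothelial genes were higher in lung without exception in the list. All 20 were called at least 2-fold higher in lung, only 1 having passed through lung alone, with differences from 4.29 to 7.36 (median 5.74). Tmem100, a membrane protein of arterial endothelium that depends on BMP signalling, was at 400, 446 and 368 TPM in lung and 2.91, 0.75 and 1.19 TPM in colon. Cldn5, the endothelial tight junction claudin, was at 412, 413 and 361 TPM in lung and 2.49, 2.28 and 2.63 TPM in colon, and Calcrl and Ramp2, the subunits of the adrenomedullin receptor, had differences of 6.71 and 6.57. The summed level of the list was 5142 to 5760 TPM in lung and 37.4 to 79.9 TPM in colon. In the lung capillary list, 10 of 11 genes were higher in lung, and the phosphatase gene Ptprr was the exception, at 42.7, 55.3 and 54.3 TPM in colon and 1.81, 1.44 and 1.07 TPM in lung.

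Stromal and matrix genes followed the endothelium. All 15 lung mesenchyme genes were higher in lung (median 4.68, 5 through lung alone), led by Inmt, an indolethylamine methyltransferase, at 2105, 2498 and 2178 TPM in lung and 1.11, 1.32 and 1.11 TPM in colon. Of 12 tested elastic fibre genes 11 were called 2-fold higher (median 3.61, 0 through lung alone). Elastin, Eln, was at 190, 128 and 106 TPM in lung and 6.42, 1.88 and 2.31 TPM in colon (log2 difference 5.06, SE 0.38, adjusted p = 1.79e-05). Among 31 tested of 44 collagen genes, 22 were higher in lung and 2 in colon. Of the 31, 5 had passed through lung alone. The basement membrane collagens Col4a1 and Col4a2 had differences of 3.57 and 3.69, and the fibrillar Col3a1 was at 310, 227 and 215 TPM in lung against 101, 38 and 58.2 TPM in colon. Col6a4 and Col9a2 were the 2 collagens higher in colon (−2.15 and −1.12). Both had passed the filter through colon alone, and neither was called with a pseudocount of 5 (−0.91 and −0.31).

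Immune genes were mostly higher in lung. All 11 B cell genes were called, 10 of them having passed through lung alone, with Cd79a, a signalling chain of the B cell receptor, at 35.5, 33.9 and 23.5 TPM in lung and 0.29, 0.03 and 0.67 TPM in colon. All 10 MHC class II genes were higher in lung (median 3.84, 3 through lung alone), among them Cd74, the invariant chain, at 1114, 964 and 795 TPM against 35.8, 29 and 53 TPM. Of 16 T and NK cell genes 12 were higher in lung, with a median of 1.77 against 3.02 for the B cell genes, and Gzma, a granzyme of cytotoxic cells, had the largest difference at 4.48. Of these 16 genes 7 had passed through lung alone, and 3 were called with a pseudocount of 5. Among 11 tested macrophage genes 9 were higher in lung (5 with a pseudocount of 5), including the CSF1 receptor gene Csf1r, at 48.5, 51.7 and 48.5 TPM against 2.02, 1.95 and 2.76 TPM. In the alveolar macrophage list 9 of 12 were higher in lung, where 7 of the 12 had passed through lung alone, with the chitinase-like gene Chil3 at 143 to 176 TPM and listed at 0 in colon, and Plet1 and Cidec were higher in colon (−1.60 and −2.13). Only 6 of 12 neutrophil genes were tested, all through lung alone.

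Erythrocyte transcripts moved with the immune and endothelial lists. The erythroid genes summed to 6629 to 10830 TPM in lung and 47.7 to 111 TPM in colon. The globin gene Hbb-bs was at 4481, 3966 and 2980 TPM in lung and 36.6, 12.2 and 10.7 TPM in colon, with reads possibly divided between it and its near-identical partner Hbb-bt. The part of blood left in the tissue in these differences was not tested.

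Plasma cell genes were split. Igha, the constant region of IgA, was at 210, 77.5 and 325 TPM in colon and 15.7, 9.55 and 12.5 TPM in lung, and Jchain, which joins IgA into dimers, at 68, 31.3 and 92 TPM and 5.75, 3.08 and 3.56 TPM. Both were higher in colon without overlap (log2 differences −3.72 and −3.56). Pigr, the epithelial receptor that carries dimeric IgA to the gut lumen, was higher in colon as well, at 1105, 854 and 831 TPM against 23.6, 25.7 and 45.3 TPM. In contrast Mzb1, a chaperone of plasma and marginal zone B cells, Irf4 and Derl3 were higher in lung (2.29, 1.12 and 1.10), and 1 gene of the list was called 2-fold higher in lung under quantile normalisation, median ratio scaling or a pseudocount of 5.

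Absorptive colonocyte genes formed the mirror image of the type 2 list. Of 26 genes 25 were tested, 12 through colon alone, and 25 were called at least 2-fold higher in colon (median −7.41). Guca2a was at 4516, 4027 and 4155 TPM in colon and 0, 0 and 4.39 TPM in lung (log2 difference −11.24, SE 0.62; −12.05 without lung library 3). Krt20, the keratin of mature surface colonocytes, was at 706, 1330 and 791 TPM in colon and 0.06, 0.07 and 1.75 TPM in lung. Ceacam1, an adhesion molecule found on several epithelia and on endothelium, stayed measurable in lung at 36.5, 38.9 and 39.8 TPM against 3176, 3784 and 2767 TPM in colon. The smallest difference of the list was that of Car4, the membrane-anchored carbonic anhydrase, which is also used as a marker of an alveolar capillary cell. Car4 stood at 617, 577 and 553 TPM in colon and 282, 274 and 264 TPM in lung (log2 difference −1.09, SE 0.06, adjusted p = 5.39e-06), and was at −0.83 after quantile normalisation, under the 2-fold threshold.

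Secretory cells of the colon showed the same direction. All 18 tested goblet cell and mucus genes were higher in colon (median −7.33, 6 of them through colon alone). Muc2, the gel-forming mucin of the colonic mucus, was at 8186, 3697 and 6107 TPM in colon and 0.53, 0.63 and 5.26 TPM in lung (log2 difference −11.15, SE 0.57, and −11.82 without lung library 3). Zg16, a lectin of the mucus, was at 3150, 3351 and 4502 TPM in colon and 0.13, 0.12 and 4.49 TPM in lung (log2 difference −10.89, and −11.65 without lung library 3). For both genes lung library 3 lay above the others and far below colon. The enteroendocrine list held 15 genes, of which 12 were tested, all through colon alone, so their direction was fixed by the filter. Its leading members were Pyy, the hormone peptide YY, at 106, 76.1 and 108 TPM in colon, and Chga, chromogranin A, at 76.3, 66.4 and 94.2 TPM, with neither above 0.4 TPM in a lung library. Of 9 tested tuft cell genes 7 were higher in colon (3 with a pseudocount of 5), and 6 of the 9 had passed through colon alone. Ltc4s, the leukotriene C4 synthase gene, was higher in lung (1.46, and 0.92 after quantile normalisation).

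Antimicrobial genes divided between the tissues. Of 16 tested mucosal defence genes 11 were higher in colon and 4 in lung, against 14.0% and 28.3% of all genes tested. Of the 16, 4 had passed through colon alone and 2 through lung alone. Reg3b, a lectin that binds bacteria, was at 141, 1713 and 236 TPM in colon and no higher than 0.12 TPM in lung, with colon library 2 far above the others. Its log2 difference was −8.51, −7.44 without colon library 2 and −9.23 without colon library 1. Lyz1, the P lysozyme, was at 754, 476 and 571 TPM in lung and 1.63, 2.27 and 2.42 TPM in colon (log2 difference 7.58, SE 0.18, adjusted p = 1.3e-07), and Lcn2, the siderophore-binding lipocalin, at 165, 114 and 145 TPM against 2.1, 1.02 and 1.12 TPM. The groups did not overlap for any of these 3 genes.

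Smooth muscle genes were higher in colon in 13 of 18 tested, with a median of −1.75, and none had passed through colon alone (0). Actg2, the gamma actin of visceral smooth muscle, was at 1183, 388 and 349 TPM in colon and 22.4, 18.9 and 24.9 TPM in lung. Acta2, the alpha actin shared with vascular smooth muscle, was at 954, 455 and 458 TPM in colon and 159, 158 and 183 TPM in lung. Colon library 1 was the highest for both, and the groups did not overlap. The log2 difference was −4.57 (SE 0.44) for Actg2 and −1.81 (SE 0.28) for Acta2, and without colon library 1 it was −4.01 and −1.45; 12 genes of the list were called without that library. Hhip, an inhibitor of hedgehog signalling, was the member higher in lung, at 15.1, 13.1 and 13.5 TPM against 1.18, 1.03 and 1.19 TPM.

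Genes of enteric neurons were higher in colon in 11 of 13 tested, and 8 of the 13 had passed through colon alone; 6 were called with a pseudocount of 5. Snap25, a protein of synaptic vesicle fusion, was at 19.6, 16.6 and 12.3 TPM in colon and 0.09, 0.09 and 0.13 TPM in lung. Stmn2, a microtubule regulator of growing neurites, was higher in lung, at 46, 52.2 and 44.3 TPM against 16.6, 12.2 and 10.7 TPM. Among 9 tested genes of enteric glia and of the pacemaker cells of Cajal, 3 were higher in colon and 3 in lung, with a median of 0.12; 2 had passed through colon alone and 1 through lung alone. Erbb3, the neuregulin receptor of glia, which epithelium also expresses, was at 158, 133 and 143 TPM in colon and 19.7, 20.2 and 21.2 TPM in lung. Kit, a receptor of the pacemaker cells of Cajal in gut muscle and of mast cells, was higher in lung, at 139, 147 and 102 TPM against 34.6, 16.8 and 32.6 TPM (log2 difference 2.22, SE 0.28). Ano1, the chloride channel of those pacemaker cells, which other smooth muscle and airway epithelium also express, was at 29.1, 33.1 and 34.6 TPM in lung and 20.4, 5.73 and 11 TPM in colon.

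Transcription factors of both epithelia differed widely. Of 43 tested members of the list 17 were called 2-fold higher in lung and 20 in colon, against 28.3% and 14.0% of all genes tested. Of the 43, 7 had passed through lung alone, Nkx2-1 among them, and 10 through colon alone, among them Cdx1 and Cdx2. The filter fixed the direction of these genes. Nkx2-1, which specifies lung and thyroid in the foregut, was at 151, 158 and 142 TPM in lung and listed at 0 in each colon library. Cdx2 and Cdx1, which specify the intestine, were at 169, 170 and 182 TPM and 179, 176 and 209 TPM in colon and reached 0.17 and 0.15 TPM in lung library 3, with 0 in the others. Hnf4a, a nuclear receptor of gut and liver epithelium, was at 281, 334 and 314 TPM in colon and 0.04, 0.71 and 3.21 TPM in lung, where library 3 was the highest, as it was for the hepatocyte sum. The log2 differences were 7.24 (SE 0.08) for Nkx2-1, −7.37 (SE 0.10) for Cdx2, −7.49 (SE 0.11) for Cdx1 and −7.31 (SE 0.46) for Hnf4a, which was −7.86 without lung library 3.

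Mesenchymal factors divided too. Tbx4 and Tbx5, T-box factors that drive outgrowth of the lung bud, were at 36.7, 49.1 and 38.7 TPM and 14.1, 19.3 and 16.1 TPM in lung and at most 0.03 TPM in colon. Foxf1, which is expressed in the mesenchyme of the whole gut tube, was measurable in both, at 142, 165 and 166 TPM in lung and 11, 6.68 and 10 TPM in colon. Nkx2-3, a factor of intestinal mesenchyme, was at 4.06, 2.68 and 5.13 TPM in colon and listed at 0 in lung. Tbx4 and Tbx5 had passed the filter through lung alone and Nkx2-3 through colon alone, which fixed their direction. Klf2, an endothelial factor induced by blood flow, was at 90.9, 164 and 229 TPM in lung and 3.9, 1.91 and 3.09 TPM in colon. Atoh1, the goblet cell factor, and Vdr, the vitamin D receptor, had log2 differences of −5.20 and −5.36. Gata6, which both organs need in development, was even, at 18.9, 17.2 and 20.5 TPM in colon and 18.9, 22.7 and 16.7 TPM in lung (log2 difference 0.03, SE 0.13, adjusted p = 0.816); after median ratio scaling no member of the list was even (0).

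Hox genes, which mark position along the body axis in the order of their paralog numbers, differed by number. Of 39 genes 22 were tested. Among paralogs 1 to 5, 4 of 11 tested genes were called 2-fold higher in lung (Hoxa2, Hoxa4, Hoxa5 and Hoxb2) and 4 in colon (Hoxb3, Hoxb5, Hoxd3 and Hoxd4), with summed means of 106 TPM in lung and 95.6 TPM in colon for the 15 genes. Among paralogs 6 to 8, all 5 tested genes were higher in colon (132 against 11.5 TPM for 8 genes), and among paralogs 9 to 13 all 6 tested (112 against 0.45 TPM for 16 genes). Of the 22 tested Hox genes 10 had passed through colon alone. They included all 6 tested of paralogs 9 to 13, whose direction was thus fixed by the filter. The others were Hoxb8, Hoxd8, Hoxd3 and Hoxd4.

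Hoxa5, which lung development requires, was at 46, 44.6 and 33.2 TPM in lung and 14.6, 4.88 and 4.11 TPM in colon (log2 difference 2.43, SE 0.41, adjusted p = 0.00118). Hoxb9 was at 48.2, 50.2 and 67.5 TPM in colon and at most 0.05 TPM in lung (log2 difference −5.77, SE 0.14). Hoxa9 stood at 45.6, 5.64 and 2.71 TPM in colon and Hoxa10 at 41.1, 5.35 and 4.21 TPM, with lung at 0.13 TPM or less. Colon library 1 was thus far above the other colon libraries in these Hoxa genes, while it was the lowest of the 3 for Hoxb6 (35.3, 53.1 and 84.7 TPM) and Hoxb8 (10.8, 15.8 and 25.3 TPM). Without colon library 1 the log2 difference was −2.21 for Hoxa9 in place of −3.29, and −2.52 for Hoxa10 in place of −3.48, and both calls held. Without colon library 3 that of Hoxa9 was −4.04. Hoxa13 was listed at 22.5, 0.92 and 0.94 TPM in colon and 0 in lung, and failed the filter. The call of Hoxa7 (49.6, 12.8 and 6.43 TPM in colon against 3.7, 4.71 and 3.57 TPM in lung) was lost with a pseudocount of 5 and without colon library 2 or any single lung library. Without colon library 1 or 3 its difference was −1.03 or −2.41 in place of −1.80. With quantile normalisation, with median ratio scaling and with a pseudocount of 5, 2 Hox genes were called in lung in place of 4: Hoxa2 (1.07) was at 0.40, 0.75 and 0.61, and Hoxb2 (1.19) at 0.57, 0.86 and 0.75. Hoxa2 was also under 2-fold without colon library 2 (0.88) or 3 (0.92) or lung library 2 (0.98), and Hoxb5 (−1.13) without colon library 3 (−0.91). With a pseudocount of 5, 8 Hox genes were called in colon in place of 15.

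**Figure D3:**
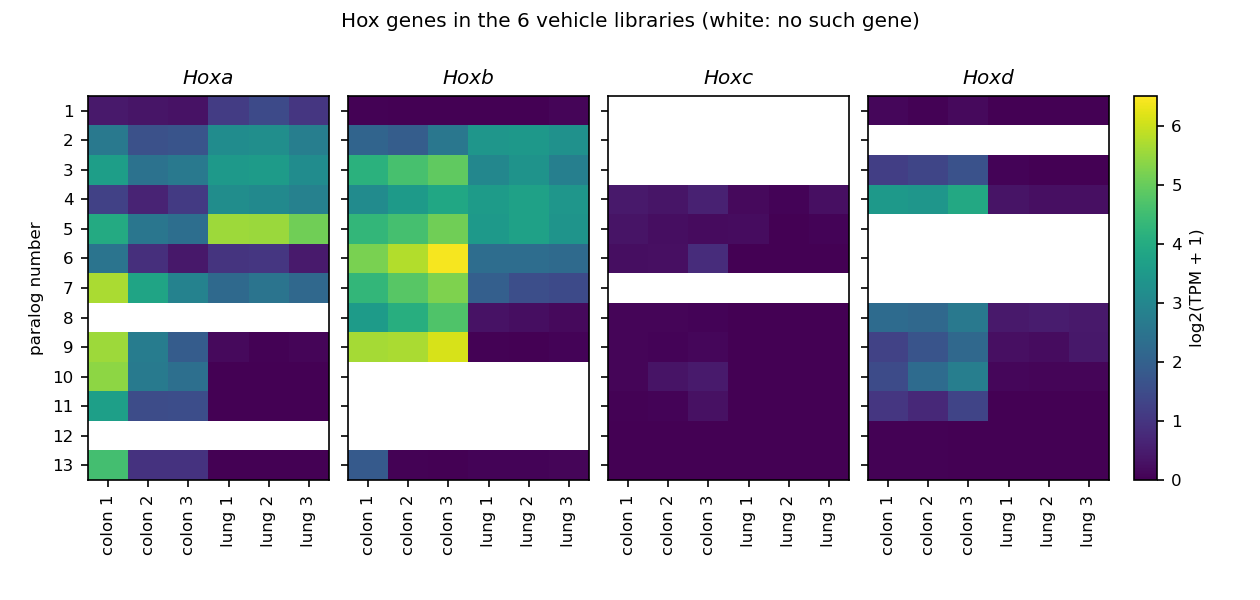
Level of each Hox gene, as log2(TPM + 1) by colour, in the 3 colon and 3 lung vehicle libraries, one panel per cluster and one row per paralog number. Paralogs 9 to 13 are at or near 0 in every lung library, and Hoxa9 to Hoxa13 are highest in colon library 1.

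Signalling genes of the crypt did not move as a block. Of 17 genes linked to crypts and Wnt targets, 5 were called 2-fold higher in colon and 5 in lung, against 14.0% and 28.3% of all genes tested. Of the 17, 3 had passed through colon alone and 1 through lung alone. Sox9, a factor of crypt progenitors, was at 15.8, 7.8 and 14.8 TPM in colon and 0.2, 0.2 and 0.32 TPM in lung, and Ephb2, a receptor that positions crypt cells, at 14.3, 11.2 and 14.7 TPM against 1.17, 0.88 and 1.3 TPM. The stem cell gene Lgr5, named after its value was seen, was at 4.23, 2.64 and 3.45 TPM in colon and 0.46, 0.27 and 0.31 TPM in lung. Nkd1, a Wnt-induced inhibitor of Wnt signalling, was at 82, 96.1 and 78.2 TPM in lung and 9.14, 4.62 and 7.25 TPM in colon (log2 difference 3.47, SE 0.21), and Tcf7, a Wnt effector that T cells also express, had a difference of 2.93. After median ratio scaling the split was 4 in lung and 7 in colon, after quantile normalisation 4 and 9, and with a pseudocount of 5 it was 4 and 3.

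Wnt ligands and secreted regulators were higher in lung in 11 of 16 tested of 25 genes, and 9 of the 16 had passed through lung alone; none was called in colon (0), and 7 were called in lung with a pseudocount of 5. Wnt3a was at 9.3, 12.1 and 10.2 TPM in lung and listed at 0 in colon. In the BMP pathway 12 of 19 tested genes were higher in lung, led by Eng and Acvrl1, the endothelial receptors of BMP9, with differences of 5.81 and 5.54. Bmpr2, their type II partner, was at 77.8, 89.1 and 84 TPM in lung and 8.45, 7.41 and 6.55 TPM in colon. The antagonist Grem1 and the ligand Bmp2 were higher in colon (−2.0 and −1.22), with Grem1 at 10.5 TPM in colon library 1 and 2.26 and 1.98 TPM in the others (−1.38 without library 1). With a pseudocount of 5 neither was called at 2-fold (−0.83 and −0.70).

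Genes of epithelial ion transport had members called higher in each tissue. Of 20 tested ion transport genes, 14 were higher in colon and 6 in lung, against 14.0% and 28.3% of all genes tested. Of the 20, 4 had passed through colon alone and 2 through lung alone, Scnn1g among the latter. Scnn1g, the gamma subunit of the epithelial sodium channel, was at 71, 76.1 and 73.3 TPM in lung and 0.03, 0.1 and 0.36 TPM in colon, and Scnn1b, the beta subunit, at 81.9, 82.9 and 83.9 TPM against 3.58, 2.91 and 3.2 TPM. Slc9a2, a sodium and proton exchanger, was at 142, 169 and 148 TPM in colon and at most 1.11 TPM in lung. The chloride channel gene Cftr, named after its value was seen, was at 34.6, 33.1 and 33 TPM in colon and 2.52, 2.37 and 2.67 TPM in lung (log2 difference −3.30, SE 0.08).

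In the aquaporin, claudin, mucin and keratin families, too, some members were higher in lung and others in colon. Aqp5 and Aqp1, the water channels of alveolar epithelium and of endothelium, were higher in lung (8.57 and 2.62), and Aqp8, Aqp11 and Aqp4 in colon (−6.02, −2.91 and −2.54). Aqp8 was at 92.7, 287 and 37.8 TPM in colon, and its difference was −5.27 without colon library 2 and −6.71 without library 3. Aqp4 was at 93.6 TPM in colon library 1 and 17.9 and 11.7 TPM in the others, and its difference was −1.67 without that library. Among 12 tested claudins Cldn18, the alveolar form, and Cldn5 led in lung (8.16 and 6.84), whereas Cldn7 and Cldn3 were highest in colon, at 744, 874 and 789 TPM and 543, 589 and 569 TPM. Cldn3 was also at 129, 118 and 133 TPM in lung. Of 8 tested mucins Muc1 was higher in lung (6.48, and 7.13 without colon library 1) along with Muc5b, which reached 23.2 TPM in lung library 3 against 4.63 and 5 TPM in the others (log2 difference 3.21, and 2.53 without library 3). Muc2, Muc3 (−10.49, and −11.18 without lung library 3), Muc13 and Muc4 were higher in colon, Muc4 by under 2-fold without colon library 1 (−0.97). Krt8, the common keratin of simple epithelia, was at 3209, 3721 and 3082 TPM in colon and 129, 124 and 146 TPM in lung, whereas Krt80 was at 76.3, 82.4 and 67.4 TPM in lung and 1.12, 0.27 and 0.44 TPM in colon.

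Carbonic anhydrases and stress genes were called in both directions. Of 12 tested carbonic anhydrases 6 were higher in colon and 2 in lung, against 14.0% and 28.3% of all genes tested. Of the 12, 1 had passed through colon alone and 1 through lung alone. Besides Car1, Car2 was at 556, 621 and 487 TPM in colon and 81.4, 86.6 and 72.6 TPM in lung (log2 difference −2.77, SE 0.11), and Car14, a membrane form, was higher in lung (2.70). Of 20 immediate early and stress genes 8 were higher in lung and 4 in colon, the same ratio of lung to colon calls as over all genes tested (28.3% and 14.0%). Dusp1, a phosphatase that switches off MAP kinases, was at 160, 225 and 191 TPM in lung and 21.3, 19.5 and 17.6 TPM in colon (log2 difference 3.23, SE 0.13), and Ier3 and Nr4a1, an immediate early gene and an orphan nuclear receptor, had differences of 3.89 and 3.42. Fosl2 and Atf3, subunits of AP-1-type dimers, were higher in colon (−2.12 and −2.11). Time between death and freezing was not tested.

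Both organs expressed enzymes of foreign compound metabolism. Of 50 tested genes 28 were higher in colon and 16 in lung, against 14.0% and 28.3% of all genes tested. Of the 50, 7 had passed through colon alone and 6 through lung alone, Cyp2b10 and Cyp2f2 among the latter. Cyp2c55, a P450 of the colonic epithelium, was at 2001, 3662 and 2090 TPM in colon and 0, 0 and 2.74 TPM in lung (log2 difference −10.64; −11.28 without lung library 3). Cyp2b10 was at 195, 206 and 201 TPM in lung and at most 0.06 TPM in colon, and Cyp2f2 had the largest difference of the list on the lung side. Fmo2, a flavin monooxygenase, was at 336, 410 and 407 TPM in lung and 4.9, 5.63 and 6.71 TPM in colon. Nr1i2, the xenobiotic receptor PXR, was at 48.6, 50.8 and 52.4 TPM in colon and 0.9, 0.96 and 1.63 TPM in lung. The summed level of the list was similar, 7438 to 11110 TPM in colon and 8403 to 9102 TPM in lung, and the groups overlapped.

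Fat oxidation genes were higher in colon in 16 of 23, with none called 2-fold higher in lung (0) and none having passed through colon alone (0). Hadh, the dehydrogenase of the penultimate step of mitochondrial oxidation, was at 264, 294 and 315 TPM in colon and 98.2, 94.2 and 96.3 TPM in lung (log2 difference −1.58, SE 0.08, adjusted p = 1.91e-06). Etfa, a subunit of the flavoprotein that takes up the electrons of the first step, was at 170, 201 and 180 TPM against 82, 73.5 and 90.8 TPM. The groups did not overlap for either gene. Cholesterol synthesis genes were lower in lung in 6 of 19 by the 2-fold rule, with Dhcr7, which makes the last step to cholesterol, at 68.9, 58.5 and 58.8 TPM in colon and 8.19, 10.7 and 11.2 TPM in lung. Their count was 12 without lung library 3, 10 without colon library 1 and 14 after median ratio scaling. Lipid genes of the other direction included Cd36, a fatty acid transporter abundant in lung endothelium, at 773, 753 and 723 TPM in lung and 6.23, 4 and 3.82 TPM in colon, and Scd1, a desaturase, at 325, 200 and 233 TPM against 28, 23.4 and 21.5 TPM.

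Cell division genes were higher in colon in 16 of 26, and none was called 2-fold higher in lung (0). Ube2c, the ubiquitin-conjugating enzyme of mitotic exit, was at 44.6, 44.2 and 54.7 TPM in colon and 9.11, 7.45 and 6.77 TPM in lung, and Top2a, topoisomerase II alpha, at 36.6, 38.2 and 33.5 TPM against 9.22, 8.73 and 6.61 TPM. Log2 differences of the called genes ran from −2.48 to −1.09. The replication genes Pcna, Mcm2 and Mcm6, named after their values were seen, were even as deposited: Pcna was at 62.4, 63.4 and 56.3 TPM in colon and 72.8, 64.6 and 65.9 TPM in lung. After median ratio scaling 18 of the 26 were called in colon and 1 was even in place of 4, and with a pseudocount of 5 TPM 11 were called.

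Subunits of the proteasome and the ribosome differed little. Of 31 proteasome genes 29 were even (93.5%, against 17.1% of all genes tested), with 0 called at 2-fold and a median of 0.14. Of 76 tested ribosomal protein genes 54 were even (71.1%), with 0 called and a median of −0.095. The sign of both medians depended on scaling: after median ratio scaling they were −0.26 and −0.49, with 18 and 22 even and 4 ribosomal genes called in colon, and after quantile normalisation 0.14 and 0.10, with 27 and 51 even. Genes for SR proteins, which bind exons and recruit the spliceosome, and for the kinases that phosphorylate them had a median of 0.72 over 19 tested, and 0.32 after median ratio scaling. By adjusted p alone, 17 of the 19 were called higher in lung and 2 in colon. Only 1 was even (5.26%), and 8 were even after median ratio scaling. Srsf10 and Srpk2 were the 2 called at 2-fold, with Srsf10 at 81.1, 84.9 and 84.5 TPM in lung and 35.4, 33.4 and 33.7 TPM in colon (log2 difference 1.26, SE 0.06), and 4 were called with a pseudocount of 0.1 and 1 after median ratio scaling, where Srsf10 was at 0.88. Of 13 mitochondrially encoded genes 5 were at least 2-fold higher in colon, among them the cytochrome oxidase gene mt-Co1, at 38711, 41976 and 43123 TPM in colon and 14390, 14980 and 14029 TPM in lung (log2 difference −1.51, SE 0.12). After quantile normalisation 2 were called and mt-Co1 was at −1.0. Nuclear copies of mitochondrial sequence can share reads with these genes.

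Of 28 tested tissue-specific splicing regulators 6 were higher in lung and 8 in colon, against 28.3% and 14.0% of all genes tested. Of the 28, 3 had passed through lung alone and 5 through colon alone, and with a pseudocount of 5 the counts were 3 and 5. Qk, the quaking RNA-binding protein, was at 100, 102 and 98.1 TPM in lung and 4.54, 3.23 and 3.81 TPM in colon (log2 difference 4.39, SE 0.11). Esrp1, which sets epithelial splicing, was at 109, 102 and 104 TPM in colon and 14.6, 15 and 15.5 TPM in lung. Rbm47 and A1cf, cofactors of apolipoprotein B mRNA editing, were higher in colon as well (−2.77 and −3.71). Values per gene show RNA abundance and not exon use.

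Transcripts of other organs differed between single lung libraries. Albumin, Alb, was at 9.07, 292 and 782 TPM in lung and 0.43, 0.35 and 1.48 TPM in colon, so the groups did not overlap while the lung libraries spanned a wide range. The log2 difference of Alb was 6.29 (SE 1.47, adjusted p = 0.00601), 5.01 without lung library 3 and 8.15 without lung library 1. Of 12 tested hepatocyte genes, 7 of which had passed through lung alone, 8 were called 2-fold higher in lung, 6 without lung library 3 and 5 without colon library 1. Apoa1 and Fabp1, genes of liver and small intestine, were likewise highest in lung library 3, at 4.02, 82.7 and 266 TPM and 12.7, 83.4 and 191 TPM in lung, and without it their differences were 3.50 and 3.13 in place of 4.73 and 3.96. Without lung library 1 they were 6.37 and 5.04. Cardiac muscle genes summed to 538, 299 and 710 TPM in lung and 12.9 to 18 TPM in colon, with the atrial light chain gene Myl7 at 116, 56.9 and 160 TPM; heart muscle also extends into the pulmonary veins of mice. The acinar pancreas gene Clps was at 42.9, 11.2 and 21.1 TPM in colon and at most 0.28 TPM in lung, and 9 of the 10 pancreas genes were under 1 TPM in all colon libraries. All 4 tested mesothelium genes were higher in lung, with Msln, mesothelin of the pleural surface, at 5.9, 21.1 and 33.2 TPM there (log2 difference 3.12, and 3.78 without lung library 1). Small intestine genes were higher in colon in 6 of 9 tested, among them Slc5a1, the sodium and glucose cotransporter, at 60.3, 75.4 and 86.3 TPM against 1.44, 1.45 and 2 TPM. Carry-over of other tissue was not tested as the source of any of these.

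**Figure D4:**
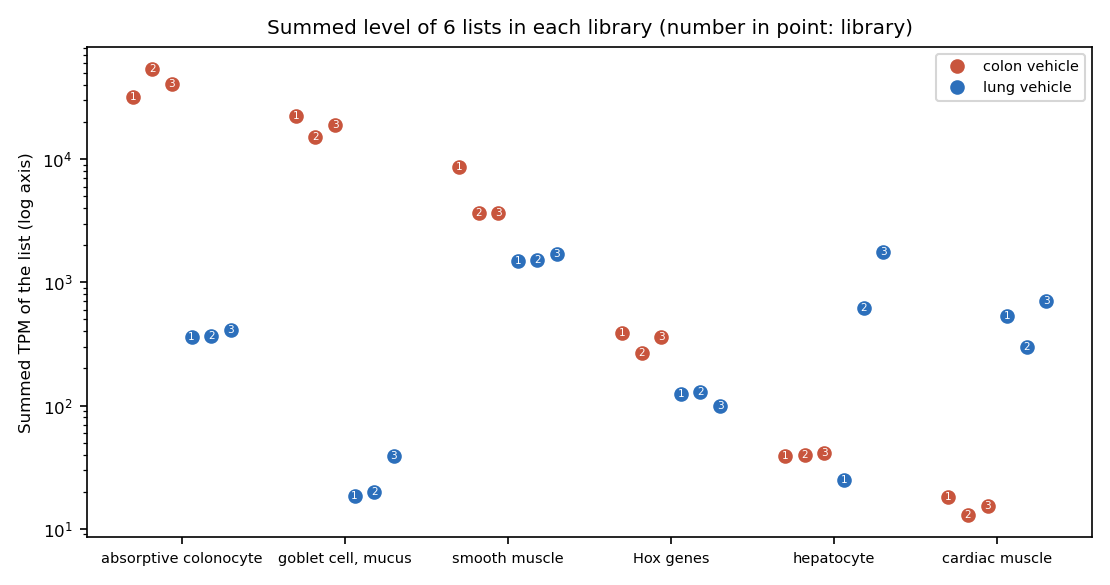
Summed TPM of 6 gene lists, on a log axis, in each of the 3 colon (red) and 3 lung (blue) vehicle libraries, with the library number inside each point. Absorptive colonocyte genes lie between 32250 and 53720 TPM in colon and 361 and 411 TPM in lung, and hepatocyte genes span 24.9 to 1780 TPM between lung libraries.

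The comparison was repeated in lung and colon libraries of RECTAS-treated mice, which share no library with it. By the same test 8451 genes (52.4%) were called higher in lung and 3872 (24.0%) higher in colon. Of the 6827 genes called at 2-fold under vehicle, 6820 had the same direction under RECTAS, 6752 also passed the adjusted p and 6413 also the 2-fold rule, and 7 had the opposite direction. Log2 differences of the 2 comparisons correlated at a Pearson r of 0.989 across the 16137 genes, which are not independent replicates and share their tissue. Under RECTAS, Sftpc was at 33437, 31816 and 35899 TPM in lung and Slc26a3 at 205, 185 and 419 TPM in colon.

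Whether the tissue difference itself changed with the drug was tested as an interaction in 1 limma fit of the 12 libraries. No gene passed (0, or 0%), and the smallest adjusted p was 0.9998. Of the 16137 genes 441 had an unadjusted p under 0.05, fewer than the share of 0.05 that no interaction would give. Among the genes with the smallest p and a larger lung minus colon difference under RECTAS were Rhob, a stress-induced GTPase, and Ppp1r7, a phosphatase subunit, with log2 interactions of 1.15 and 0.84. Rhob was at 82.2 ± 10.1 TPM in colon and 110 ± 22.1 TPM in lung under vehicle, and 72.4 ± 7.18 and 214 ± 11.1 TPM under RECTAS (SD, n = 3). On the other side Ms4a4c, Lyst, a regulator of lysosome size, and Ghrl, the ghrelin gene, had a smaller difference under RECTAS, with log2 interactions of −0.86, −0.95 and −0.68. None of these differences passed the adjustment. The count was 1 without colon RECTAS library 3.

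Motif matches in promoter windows were counted for the 9446 tested genes with a single RefSeq start, on both strands, as a description. CDX motifs, TTTATTG or TTTATGG, were found in 8.46% of 319 windows of genes called at least 8-fold higher in colon, in 5.27% of 569 windows of genes called at least 8-fold higher in lung, and in 4.38% of all tested. HNF4 motifs, CAAAGTCCA, were in 1.88%, 0.527% and 0.508%, which is 6 windows on the colon side, and HNF1 motifs, GTTAATNAT, in 2.51%, 1.23% and 0.508%, which is 8. Forkhead motifs, TGTTTAC, were in 6.27%, 3.87% and 2.72%, and GATA motifs, AGATAAG, in 4.08%, 3.16% and 1.99%. The NKX2-1 motif, CTCAAG, did not separate the sets, with 16.3% in colon, 14.1% in lung and 14.6% of all tested, although Sftpb carries 2 matches. RFX motifs, GTTGCCATG, were in 0.313%, 0.879% and 0.55%, and the CArG box in 1.57%, 2.64% and 1.32%. Over all 22862 windows of the RefSeq table the share was 7.71% for CDX, near that of the colon genes, 3.56% for forkhead, 3.14% for GATA, 0.875% for HNF1, 0.486% for HNF4, 0.709% for RFX, 1.53% for the CArG box and 16.4% for NKX2-1.

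**Figure D5:**
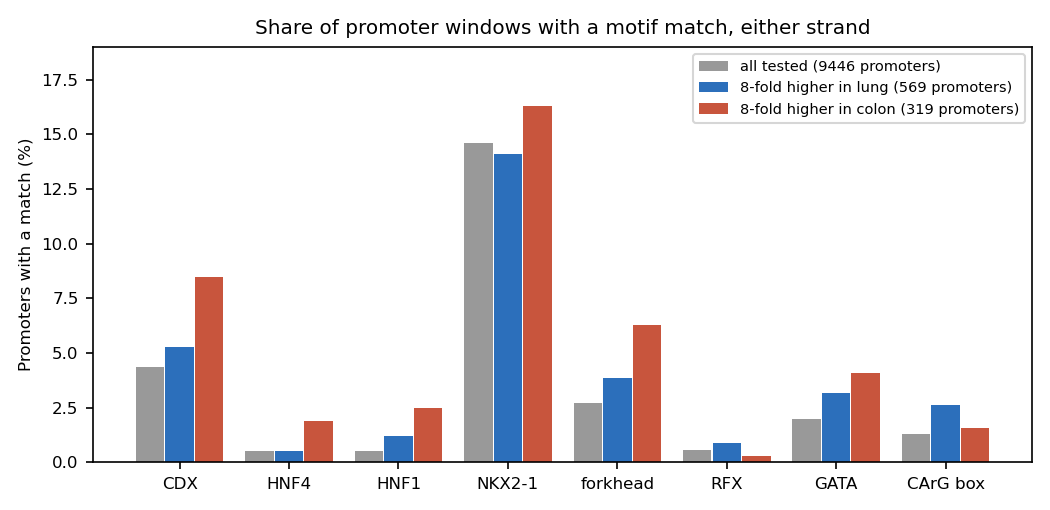
Share of promoter windows, 250 bases before to 50 after the start, with at least 1 match on either strand, for 8 motifs. Grey bars are 9446 tested genes, blue bars 569 genes called at least 8-fold higher in lung and red bars 319 called at least 8-fold higher in colon. Red bars are the tallest for the CDX, HNF4, HNF1, NKX2-1, forkhead and GATA motifs, and blue bars for the RFX motif and the CArG box.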

How the data were processed

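Poly(A) RNA of lung and colon was extracted with TRIzol and sequenced from TruSeq stranded mRNA libraries, per the labels' protocols. The submitters' processing notes name HISAT2 2.2.0, RSEM 1.3.0 and the GRCm38 build, and the annotation release is not given in the sources used here. The authors deposited TPM values per gene ID, and 55141 of 55401 IDs matched GENCODE M21, from which gene coordinates come. Genes that reached 1 TPM in 3 or more of the 6 vehicle libraries were tested on log2(TPM + 1) with limma 3.58.1 (R 4.3.3, variance trend, Benjamini-Hochberg adjustment over all 16137 genes), with tissue as the only term. A 2-fold call also needs a log2 difference of at least 1 in size. The test was checked on simulated data. Promoter sequences came from RefSeq (GRCm38.p6), and tables and plots were made with Python 3.11.15, pandas 2.3.3 and matplotlib 3.10.9. A log2(TPM + 1) difference understates the change of low genes. Genes with near-identical copies (Hba-a1 and Hba-a2, Hbb-bs and Hbb-bt, Hspa1a and Hspa1b, Sprr2 genes) are uncertain, since reads could be divided between copies.

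Genes were named by rule: both markers, the 15 protein-coding genes per direction with the largest called difference and no overlap, up to 4 called members per list with the highest mean TPM, up to 2 called in the other direction, all Hox and listed transcription factor genes, and the 3 genes per direction with the smallest interaction p. Exceptions are stated where they occur. Members and lists were chosen with earlier results of these data known. Alternatives were the pseudocount, the filter, 3 scalings, a replicate block, a fit of 12 libraries, no variance trend, a test against a minimum difference and leaving out each library. List counts without lung library 3 or colon library 1, counts of even genes after median ratio scaling, and counts of named genes losing the 2-fold call, were chosen after seeing the data. Some genes that this rule would name are not reported here.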

Additional observations from a re-analysis of the deposited data

How the results depend on the processing

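The 12588 genes called between vehicle lung and colon became 11739 to 12630 when each library was left out in turn, and the 6827 called at 2-fold became 6650 to 7023. The 2-fold count fell to 4267 with a pseudocount of 5 TPM and to 3953 among genes at 1 TPM or more in all 6 libraries, which tests fewer genes. Without the 2-fold rule 12599 genes were called with a pseudocount of 5 TPM, and the cause of the fall at 2-fold was not tested. Other scalings, pseudocounts, filters and fits kept both counts within 1.5 times. The RECTAS comparison, with 12323 calls, gave 11342 to 12162 with a library left out, and the interaction 0 to 1, the 1 without colon RECTAS library 3. With the replicate block there were 12144 vehicle calls, 6838 of the 2-fold kind, and 12152 RECTAS calls. Same-numbered lung and colon libraries had correlations of their deviations of 0.051, −0.0907 and −0.0919, under the 0.1 set for treating them as pairs. Differently numbered ones ran from −0.0538 to 0.1645, the highest being colon library 3 with lung library 2. Whether any lung and colon library share an animal was not tested. Of the values of named genes under the alternatives 0 reversed, 3513 kept their side of the adjusted p threshold and 15 did not. By the 2-fold rule, 40 of 294 named genes called lost the call under at least 1 alternative: 29 with a pseudocount of 5, 13 after quantile normalisation, 7 after median ratio scaling and 1 to 8 without a single library. With a pseudocount of 5 the calls of Hoxd3 (−0.41) and Nkx2-3 (−0.83) went, and those of Derl3 (0.86) and Irf4 (0.95) after median ratio scaling. Of the list medians 160 moved by more than the spread between libraries and 423 did not. TPM keeps no depth, so counting error behind low values is unknown.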

Other observations

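The colon libraries of RECTAS-treated mice also differed among themselves in posterior Hoxa genes. Hoxa9 was at 22.6, 20.3 and 2.92 TPM and Hoxa13 at 13.9, 10 and 0.34 TPM in RECTAS colon libraries 1, 2 and 3, against 45.6, 5.64 and 2.71 TPM and 22.5, 0.92 and 0.94 TPM in the vehicle colon libraries. The smooth muscle sum was 5548, 5654 and 3195 TPM in the RECTAS colon libraries and 8584, 3637 and 3648 TPM in the vehicle ones, so libraries high in Hoxa9 were also high in smooth muscle genes. Car1 was lower in those libraries, at 13874 and 11672 TPM in RECTAS colon libraries 1 and 2 against 25706 TPM in library 3, and at 7456 TPM in vehicle colon library 1 against 25529 and 16720 TPM. Where along the colon each piece was taken was not tested.

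Hepatocyte transcripts differed between the RECTAS lung libraries too, with summed levels of 7.58, 70.8 and 694 TPM. Alb was at 0.81, 28.5 and 334 TPM in them.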
